A study of Mus musculus with 401 samples.

Results

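Cumulus cells collected from oocyte complexes of B6D2F1 mice (the cross of C57BL/6 and DBA/2) at 2 months of age were compared with those collected at 14 months, in the second of the study's sets of libraries. The libraries were chosen by their labels alone, which give the age, the mouse, the plate and the cell type. Of 401 libraries in the series, 255 belong to the second set, and 40 of these, all of them cumulus libraries, entered the comparison. The 2-month group held 24 libraries from 5 mice and the 14-month group held 16 libraries from 5 mice, with 2 to 8 libraries for each mouse. All these mice were fed ad libitum and hyperovulated, with eCG (equine chorionic gonadotropin) or with the CARD HyperOva reagent. Which agent each mouse received is not given in the sources used here. The 32 libraries of 2-month mice without hyperovulation were left out of the comparison. Each library was made by RamDA-seq, a total-RNA method with random priming, from the cumulus cells of 1 complex from a fully grown follicle. On plate B1 there were 16 libraries of 2-month mice and 8 of 14-month mice, and on plate B2 there were 8 of each. The 2-month libraries lay in plate columns 1 and 11 and every 14-month library lay in column 12, so that plate column and age cannot be told apart. The question was which genes of the cells around the oocyte differed in level between young and reproductively old mice.

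Cumulus cells are the granulosa cells that stay attached to the oocyte inside the antral follicle. They reach the oocyte through thin projections that end in gap junctions, and through these they pass nucleotides, metabolites and amino acids that the oocyte takes up poorly by itself. The receptor NPR2 on cumulus cells makes cyclic GMP, which enters the oocyte and holds it in meiotic arrest until the surge of luteinizing hormone. In return the oocyte secretes GDF9 and BMP15, which keep cumulus cells growing and maintain cumulus genes such as Slc38a3, whose product imports amino acids.

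The total estimated count ranged from 511293 to 1148815 at 2 months, with a median of 856417, and from 575030 to 994782 at 14 months, with a median of 884514. All 14 cumulus and granulosa markers were detected, and their summed level ranged from 10741 to 17655 CPM (counts scaled to the library size) at 2 months and from 9910 to 25213 at 14 months, so the libraries carried the markers of their labelled cell type. The 15 oocyte markers summed to 1.74 to 35.5 CPM at 2 months and 11 to 35.7 at 14 months, against 18608 to 28221 CPM in the oocyte libraries of the same 2-month mice. No count was found for 6 of them, among them Bmp15, Dppa3 and Figla. Over the means of the mice, none of 11 library properties passed after correction (exact permutation test over 252 divisions of the 10 mice, Benjamini-Hochberg adjusted over 11). The smallest p was that of the ribosomal protein share, which was 1.36% ± 0.0458 (SD, n = 5 mice) of counts at 2 months and 1.20% ± 0.143 (n = 5) at 14 months, with an exact p of 0.0397 and an adjusted p of 0.437. The 14-month library 4, from mouse 14mo37, held the highest level of Pappa, Lhcgr, Cyp17a1, Col18a1 and Pde10a, and the 2-month libraries 13 and 19 held the highest levels of Slc38a3, Ccn2 and several other genes. Where these libraries hold the highest values of a gene named as a main result, its change is also given without them, except for Lrrtm3.

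Between the ages, 430 of 23660 genes differed across the libraries, 1.82% of those tested, of which 207 were higher (0.875%) and 223 lower (0.943%) at 14 months (edgeR's quasi-likelihood test with plate as a covariate, Benjamini-Hochberg adjusted p below 0.05). The genes that were lower included the amino acid transporter Slc38a3, the connexin gene Gjc1, the laminin chain Lamb1 and the matricellular proteins Ccn1 and Ccn2, and those that were higher included the X-linked multicopy genes around Luzp4. When the counts were summed for each mouse and the 5 mice of one age were compared with the 5 of the other, 61 genes differed, 0.258% of those tested, with 21 higher and 40 lower. In both tests 21 genes were higher, 0.0888% of those tested, and 39 were lower, 0.165%. "Rose" and "fell" are used below for genes that differed in both tests, and a gene that passed the library test alone is said to be higher or lower across libraries. The mouse sums hold the same counts as the libraries, so the pair of tests is not independent. The test of an age difference that varied between the plates called 0 of 23660 genes (edgeR interaction test, 2568 with an unadjusted p below 0.05), and 7 genes with the filterByExpr filter. The count of 430 depended on the mice and became 200 without mouse 14mo37, 257 without 14mo40 and 281 without 14mo41. On plate B1 alone 250 genes differed, and on plate B2 alone 18. The mouse count of 61, on which "rose" and "fell" rest, was 6 without mouse 14mo41, 15 without 14mo39 and 17 without 2mo35, and between 22 and 32 without any of 14mo37, 14mo38, 14mo40, 2mo34 or 2mo36. It was 24 with the stricter filterByExpr filter, 30 without the plate term, 184 with DESeq2 and 679 with no filter.

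Of the variance of the mouse means over all genes, 14.8% lay between the ages, with an exact p of 0.0397 (two-sided permutation test over 252 divisions). Any division of the mice places some variance between its groups, so this share is not the part due to age alone. With the 120 divisions that keep the plates balanced, an alternative added after the data were seen, the exact p was 0.0167, the smallest these divisions allow. Over the 10399 genes with a mean of at least 8 CPM the share was 15.7%, and the exact p of 0.0635 missed the threshold. The spread of single libraries around the mean of their age was 0.624 at 2 months and 0.645 at 14 months (root mean square log2 distance), a difference of 0.0212 with an exact p of 0.246. Of the spread between libraries, 23.1% lay between mice at 2 months and 29.3% at 14 months, where 17.4% and 26.7% would lie with no effect of the mouse.

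The 10 largest decreases among genes of at least 8 CPM in both tests were Slc38a3, Ccn2, Cecr2, Lamb1, Lag3, Kcnk1, Pde7b, Ccn1, Lrrtm3 and F11r. All 10 had the same sign on both plates, and in the library test 9 stayed called when each mouse was left out in turn. The mouse test called only 6 genes in all without mouse 14mo41 and 15 without 14mo39, so the calls across mice did not all hold.

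Slc38a3 (chr9:107650634-107669530, GRCm38), a sodium-coupled transporter of glutamine, histidine and alanine, ranged from 1.28 to 234 CPM at 2 months with a median of 9.20. At 14 months it ranged from 0 to 20.3 CPM with a median of 2.35. The ranges overlapped, with 5 of 16 libraries of 14-month mice below every 2-month library and 13 of 16 below the 2-month median. The fitted change was −2.84 ± 0.52 (log2, SE), with an adjusted p of 0.00129 across libraries and of 0.015 across mice. The highest 2-month value came from library 19, and without the 2-month libraries 13 and 19 the change was −1.97 with an adjusted p of 0.00549. In the groups outside the comparison its mean level was high and scattered. It was 141 ± 129 CPM (SD, n = 32 libraries) in 2-month mice without hyperovulation. At 4 months the mean was 104 ± 137 CPM (n = 40) and at 9 months 37.2 ± 37.6 CPM (n = 16). The 4-month and 9-month means lay above that of the hyperovulated 2-month libraries, so the levels were not in order of age. These differences were not tested.

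Ccn2 (chr10:24595442-24598683), a secreted protein that binds growth factors and matrix, ranged from 1.83 to 242 CPM at 2 months with a median of 17. Its 14-month levels ranged from 1.01 to 30.5 CPM with a median of 8.59, which overlapped those at 2 months. Ccn2 fell by 2.31 ± 0.46 on the log2 scale, with an adjusted p of 0.00288 across libraries and 0.015 across mice. Ccn1 (chr3:145646976-145649981), its close relative and an early response gene in many cells, ranged from 10.6 to 221 CPM with a median of 44.1 at 2 months. At 14 months it ranged from 3.36 to 43.1 CPM with a median of 16.8, and all 16 of these libraries lay below the 2-month median. Ccn1 fell by 1.58 ± 0.30 on the log2 scale (adjusted p = 0.00191 across libraries and 0.0202 across mice), and the means of the mice did not overlap between the ages. Without the 2-month libraries 13 and 19 the change was −1.72 for Ccn2 and −1.21 for Ccn1, and both stayed called.

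Ccn1 and Ccn2 are known targets of the TEAD factors, the DNA-binding partners of YAP, whose core motif is CATTCC. The RefSeq promoter of Ccn1 (GRCm38.p6, chr3:145649936-145650235, minus strand, 250 bases before the start and 50 after) is shown because the gene fell in both tests and the window holds 1 match to this motif, given in capitals.
Ccn1: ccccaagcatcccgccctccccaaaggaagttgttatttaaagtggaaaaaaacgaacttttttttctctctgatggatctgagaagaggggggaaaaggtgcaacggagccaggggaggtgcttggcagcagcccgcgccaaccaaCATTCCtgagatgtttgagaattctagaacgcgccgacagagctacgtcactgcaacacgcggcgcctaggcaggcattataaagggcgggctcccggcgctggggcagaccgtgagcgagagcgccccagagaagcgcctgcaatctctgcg
Searched on both strands, CATTCC was found in 4811 of 32817 RefSeq promoters of the same length, 14.7%. It was found in 2 of the 6 promoters available for the 10 named decreases, those of Ccn1 and Kcnk1, and in 0 of the 4 available for the 10 named increases. The table of promoters held none for Ccn2 or Slc38a3.

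Lamb1 (chr12:31265234-31329644), a laminin chain of basement membranes, ranged from 7.70 to 209 CPM at 2 months with a median of 39 and from 2.19 to 37.5 CPM at 14 months with a median of 9.64. Every 14-month library lay below the 2-month median, and 6 of 16 lay below all 2-month libraries. Lamb1 fell by 2.14 ± 0.39 on the log2 scale, with an adjusted p of 0.00113 across libraries and 0.0353 across mice. The change was −3.31 on plate B1 and −0.88 on plate B2, and the test of this difference did not pass (edgeR, adjusted p = 0.25). Cecr2 (chr6:120666369-120771190), a chromatin remodelling factor with a bromodomain, ranged from 1.11 to 51.0 CPM at 2 months with a median of 20.7. At 14 months it ranged from 0 to 20.1 CPM with a median of 3.98, again with every library below the 2-month median. Cecr2 fell by 2.19 ± 0.29 on the log2 scale (adjusted p = 1.01e-05 across libraries and 0.0019 across mice). Both genes have high levels in oocytes, at 2093 CPM for Lamb1 and 728 CPM for Cecr2 in the oocytes of the 2-month mice, while the summed oocyte markers in the cumulus libraries had a median of 15.2 CPM at 2 months and 21.9 CPM at 14 months. With the oocyte marker share as a covariate, the change was −2.16 for Lamb1 (adjusted p = 0.00236) and −2.21 for Cecr2 (adjusted p = 3e-05).

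Lag3 (chr6:124904361-124911705), known as an inhibitory receptor of lymphocytes, ranged from 1.18 to 45.3 CPM at 2 months with a median of 14.3 and from 0 to 11.8 CPM at 14 months with a median of 2.86. Lag3 fell by 2.07 ± 0.39 on the log2 scale, with an adjusted p of 0.00153 across libraries and 0.0447 across mice. The 13 immune cell markers in the table, those of lymphocytes and macrophages, summed to 3.53 to 42.6 CPM at 2 months and 4.55 to 47.5 CPM at 14 months, with no count for S100a9, C1qb or C1qc. Kcnk1, a potassium channel subunit, went from a median of 26 CPM to 7.35, and 8 of 16 libraries of 14-month mice lay below every 2-month library. Its change was −1.93 ± 0.38 (adjusted p = 0.00245 across libraries and 0.0249 across mice), and −1.58 without the 2-month libraries 13 and 19. Pde7b, a phosphodiesterase that breaks down cyclic AMP, had medians of 16.9 and 9.6 CPM and a change of −1.86 ± 0.38 (adjusted p = 0.00352 across libraries and 0.0274 across mice), and without those libraries its change was −1.37 with an adjusted p of 0.00494. Lrrtm3, a leucine-rich transmembrane protein known from synapses, had medians of 61.3 and 19.7 CPM, with every 14-month library below the 2-month median. Its change was −1.57 ± 0.30 (adjusted p = 0.00194 across libraries and 0.0215 across mice). The highest Lrrtm3 value, 263 CPM, came from 2-month library 13, and the change without the 2-month libraries 13 and 19 is not given here. F11r, the junctional adhesion molecule A, had medians of 11.4 and 3.87 CPM and a change of −1.42 ± 0.36 (adjusted p = 0.0248 across libraries and 0.019 across mice). The call of F11r was lost without the 2-month libraries 13 and 19, with a change of −1.06 and an adjusted p of 0.0867, and it was lost when any of 4 of the 14-month mice was left out.

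**Figure D1:**
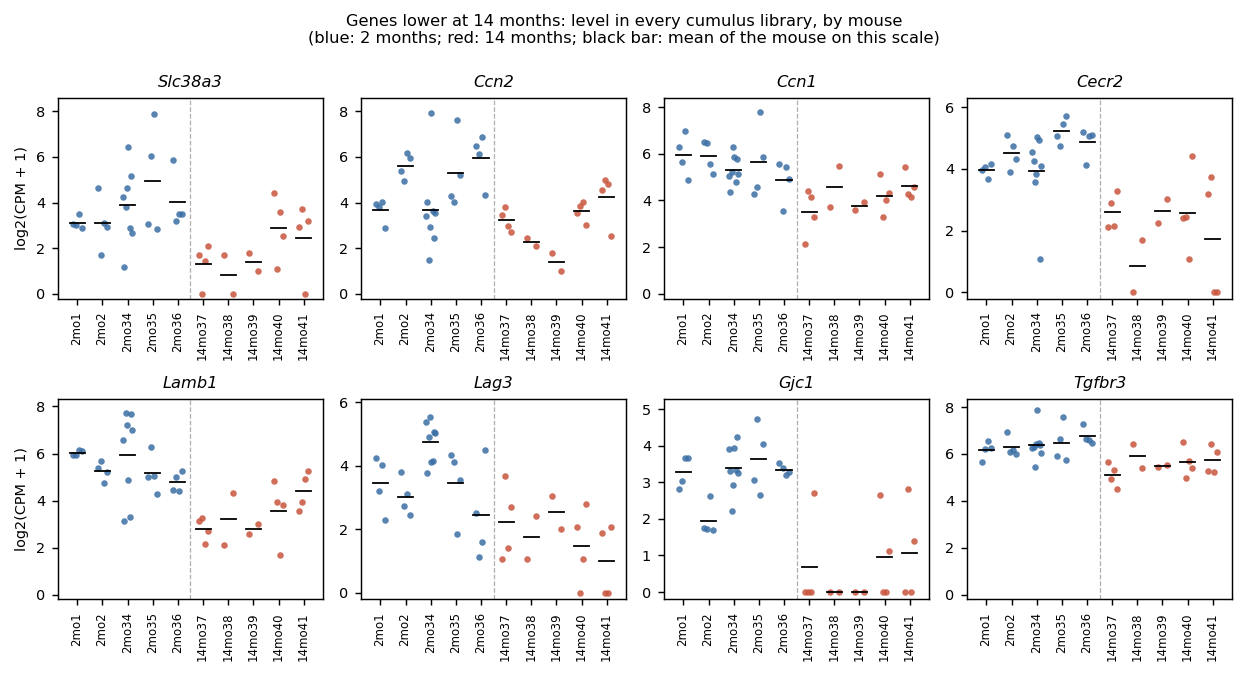
Levels of 8 genes that fell between 2 and 14 months, as log2(CPM + 1) per library, with the libraries grouped by mouse along the horizontal axis. Points are libraries of 2-month mice in blue and of 14-month mice in red, and each black bar is the mean of a mouse on this scale; 13 of 16 libraries of 14-month mice lay below every 2-month library for Gjc1, the most of these genes.

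Increases with age were fewer among well expressed genes. Only 7 genes of at least 8 CPM rose in both tests, namely BB365896, Gm45061, Ank2, AC149090.1, Gm43149, Amn1 and Aff2, and the next largest by the library test were Pappa, Lhcgr and Ptprv. All 10 had the same sign on both plates, and 6 stayed called in the library test when each mouse was left out in turn.

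The first pair lies within the gene Fam13a (chr6:58932090-59024549, minus strand). BB365896 (chr6:58965655-59002083), annotated as antisense, ranged from 12.2 to 51.8 CPM at 2 months with a median of 27.1 and from 30.5 to 188 CPM at 14 months with a median of 67.7. All 16 libraries of 14-month mice lay above the 2-month median, and 10 lay above every 2-month library. BB365896 rose by 1.06 ± 0.17 (log2, SE; adjusted p = 0.000169 across libraries and 0.00793 across mice). Gm45061 (chr6:58973197-58975291) rose by 1.0 ± 0.17 (adjusted p = 0.00054 across libraries and 0.0215 across mice), from a median of 32.4 CPM to 65.0. Fam13a itself, named here for its position, had medians of 584 and 786 CPM and was higher across libraries by 0.41 ± 0.08, with an adjusted p of 0.00308, but not across mice, where the adjusted p was 0.0809. The counting is not stated to use strand, so reads of these overlapping genes cannot be told apart.

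AC149090.1, a protein-coding model on an unplaced scaffold, ranged from 37.3 to 138 CPM at 2 months with a median of 61.6 and from 77.4 to 208 CPM at 14 months with a median of 115. AC149090.1 rose by 0.95 ± 0.14 (adjusted p = 4.38e-05 across libraries and 0.015 across mice). Of its counts above 0, 90% were not whole numbers, so reads shared with similar genes enter its level and its identity is uncertain. Aff2 (chrX:69360294-69868037), which encodes a nuclear protein linked to transcript elongation and splicing, rose by 0.64 ± 0.10 (adjusted p = 0.000225 across libraries and 0.0486 across mice). Its level went from a median of 123 CPM to 186, with 11 of 16 libraries of 14-month mice above all 2-month libraries. Ank2, the membrane adaptor ankyrin B, went from a median of 19.8 CPM to 43.0 and rose by 0.98 ± 0.21 (adjusted p = 0.0056 across libraries and 0.0439 across mice). Amn1 had medians of 17.9 and 33 CPM and rose by 0.88 ± 0.22 (adjusted p = 0.0248 across libraries and 0.0439 across mice). Its library call was lost without any of 4 mice, 2mo2, 2mo35, 14mo39 and 14mo41. Gm43149, an RNA within an intron, rose by 0.90 ± 0.25 (adjusted p = 0.0414 across libraries and 0.0464 across mice), and 9 of the 10 mice, left out singly, ended that call.

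Pappa (chr4:65124174-65357509), the protease that cuts IGF-binding proteins and so frees IGF1, had no count in 14 of 24 libraries at 2 months and reached 15.7 CPM at most. At 14 months it ranged from 0 to 606 CPM with a median of 6.25, and 5 of 16 libraries exceeded every 2-month library. The fitted change was 4.43 ± 0.70 with an adjusted p of 0.000169 across libraries, and it missed the threshold across mice with an adjusted p of 0.0598. The value of 606 CPM came from library 4 of mouse 14mo37, and without that library the change was 2.40 with an adjusted p of 0.0159. Lhcgr, the receptor of luteinizing hormone and a gene of mural granulosa and theca cells, had a 14-month maximum of 184 CPM in the same library against a 2-month maximum of 37.9. Lhcgr was higher across libraries by 2.28 ± 0.62 (adjusted p = 0.0394) but not across mice (adjusted p = 0.252), and without library 4 the change was 1.27 with an adjusted p of 0.306. Ptprv, a phosphatase gene annotated as a processed transcript, was higher across libraries by 1.79 ± 0.45 (adjusted p = 0.0247) and missed the threshold across mice (adjusted p = 0.0636). The summed theca markers ranged from 167 to 332 CPM at 2 months and from 155 to 438 CPM at 14 months. In bulk samples such as these, fewer cells of a type and less RNA per cell cannot be told apart.

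**Figure D2:**
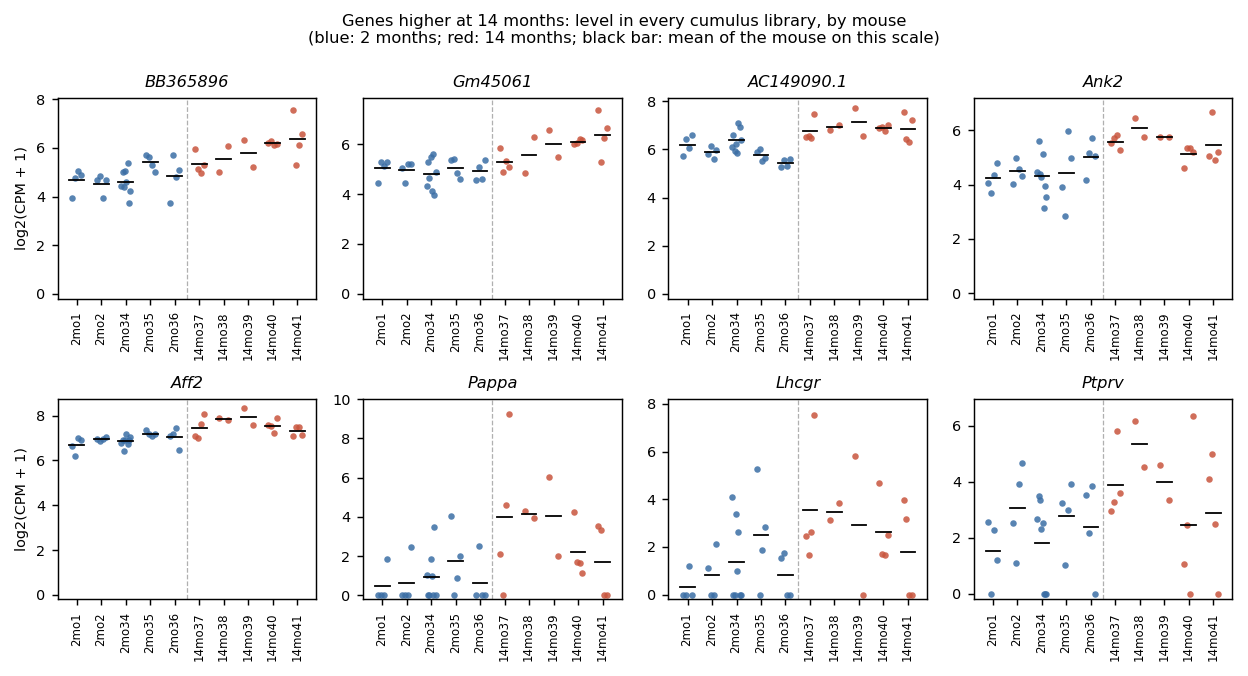
Levels of 8 genes that were higher at 14 months, as log2(CPM + 1) per library, with the libraries grouped by mouse along the horizontal axis and each black bar the mean of a mouse on this scale. Blue points are libraries of 2-month mice and red points of 14-month mice; 10 of 16 libraries of 14-month mice lay above every 2-month library for BB365896, while the highest Pappa and Lhcgr values are both from mouse 14mo37.

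The multicopy genes around Luzp4 and Ott on the X chromosome (chrX:147765991-149984982), a family known from the testis, separated the ages in every library. The annotation places 44 genes there, of which 22 were tested, 21 were higher across libraries and 8 rose in both tests. Because these genes have few or no counts at 2 months, most could pass the filter on low counts only through the libraries where they are high, so the number called among those tested is a description and no support for the difference. Gm8303 was the exception, with an adjusted p of 0.066, and it is named only as such. RefSeq promoters of 4 of these genes, chosen after the values of the locus were seen (GRCm38.p6, plus strand, 300 bases each) are shown to make the likeness of the copies visible, with capitals at the 10 positions where the 4 sequences are not all the same. They lie at chrX:148882326-148882625 for Luzp4, chrX:149097702-149098001 for Ott, chrX:149447367-149447666 for Gm15085 and chrX:149941405-149941704 for Gm15091.
Luzp4: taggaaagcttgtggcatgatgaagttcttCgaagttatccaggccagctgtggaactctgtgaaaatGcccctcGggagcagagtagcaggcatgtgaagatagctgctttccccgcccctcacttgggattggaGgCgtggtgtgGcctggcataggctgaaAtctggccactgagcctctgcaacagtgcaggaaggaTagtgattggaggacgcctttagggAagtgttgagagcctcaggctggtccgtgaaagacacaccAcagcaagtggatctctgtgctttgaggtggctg
Ott: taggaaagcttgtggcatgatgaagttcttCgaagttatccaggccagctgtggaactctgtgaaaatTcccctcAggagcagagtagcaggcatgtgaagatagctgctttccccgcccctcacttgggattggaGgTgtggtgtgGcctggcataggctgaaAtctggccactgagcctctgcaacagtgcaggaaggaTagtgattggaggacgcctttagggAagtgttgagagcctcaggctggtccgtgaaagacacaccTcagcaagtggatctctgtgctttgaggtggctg
Gm15085: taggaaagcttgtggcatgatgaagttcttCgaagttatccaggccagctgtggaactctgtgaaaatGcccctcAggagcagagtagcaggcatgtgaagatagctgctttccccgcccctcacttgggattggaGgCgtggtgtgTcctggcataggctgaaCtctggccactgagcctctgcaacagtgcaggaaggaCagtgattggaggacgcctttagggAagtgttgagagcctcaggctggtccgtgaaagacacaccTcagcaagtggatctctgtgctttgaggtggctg
Gm15091: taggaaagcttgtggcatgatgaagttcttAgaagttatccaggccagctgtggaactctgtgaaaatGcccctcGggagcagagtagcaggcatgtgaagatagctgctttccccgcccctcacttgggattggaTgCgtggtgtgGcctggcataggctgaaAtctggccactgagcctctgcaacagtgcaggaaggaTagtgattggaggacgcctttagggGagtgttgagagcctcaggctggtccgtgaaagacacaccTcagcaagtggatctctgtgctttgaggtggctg
Between any pair of these promoters, 97.7% to 98.7% of bases were identical. Of the counts above 0 in the 22 tested genes, 92.5% were not whole numbers, since the authors counted reads that map to several places as shares, so the level of 1 copy is uncertain and that of the group is given beside it.

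Luzp4 (chrX:148857640-148924139) had a rounded count of 0 in all 24 libraries at 2 months. At 14 months it was found in all 16 libraries, at 1.01 to 10.7 CPM with a median of 3.23. Luzp4 rose with an adjusted p of 1.01e-05 across libraries and 0.014 across mice. It was at least 29.2-fold higher, taking 3 counts over the 2-month group as the floor. With no rounded count at 2 months, Luzp4 passed the filter on low counts only through the 14-month libraries. Its p values are therefore descriptions and no support for the difference. Gm10439 rose from a maximum of 1.03 CPM at 2 months to a median of 3.37 at 14 months (adjusted p = 2.01e-07 across libraries and 0.0019 across mice). This gene was picked from the locus after its values were seen, so its p values are descriptions as well. Summed over the genes of the locus, the count was 0 to 2.99 at 2 months, with a median of 0.625, and 13 to 110 at 14 months, with a median of 31.8. Every 14-month library, with at least 14.1 CPM, lay above the highest 2-month library at 5.86 CPM. The mean of the mice was 1.06 ± 0.720 CPM (SD, n = 5 mice) at 2 months and 38.8 ± 12.4 CPM (n = 5) at 14 months. In the oocyte libraries of the same mice the locus stood at 1.6 ± 1.11 CPM (n = 24 libraries) at 2 months and 1.70 ± 1.22 (n = 16) at 14 months. Cumulus libraries outside the comparison held 1.70 ± 2.31 CPM (n = 32) at 2 months without hyperovulation, 7.24 ± 6.99 (n = 40) at 4 months and 33.9 ± 21.3 (n = 16) at 9 months, which was not tested here.

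**Figure D3:**
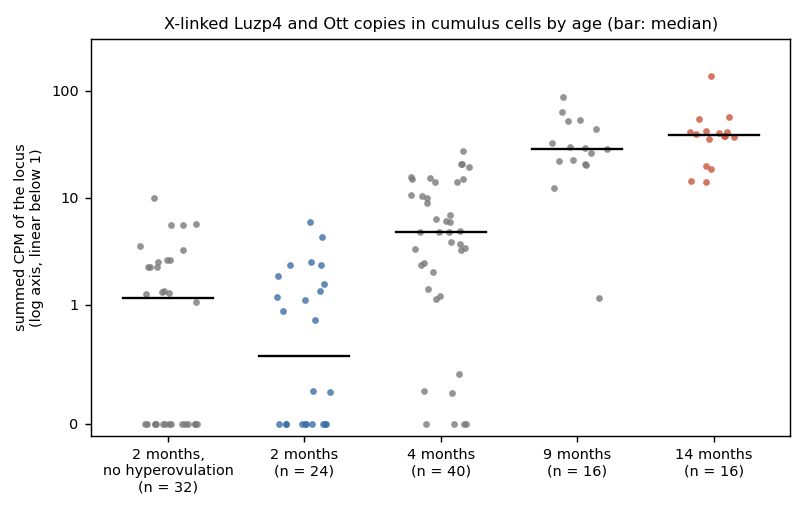
Summed level of the genes around Luzp4 and Ott in each cumulus library of the second set, in CPM on a log axis that is linear below 1, for 2 months without hyperovulation and for 2, 4, 9 and 14 months with it. Points are libraries and bars are medians; the 16 libraries at 14 months lie at 14.1 CPM or more, above all 24 at 2 months.

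Gap junctions and signals of meiotic arrest were described as a list of 16 genes, of which 15 were tested, 1 was higher and 2 were lower across libraries, and 1 fell in both tests. Over all genes tested, 0.875% were higher, 0.943% were lower and 0.165% were lower in both tests. The median change of the list was −0.08, against 0.00 over all genes. Gjc1 (chr11:102799579-102819700), which encodes connexin 45, ranged from 2.24 to 25.7 CPM at 2 months with a median of 8.59. At 14 months it had no count in 11 of 16 libraries and reached at most 6.10 CPM, and 13 of 16 libraries lay below every 2-month library. Gjc1 fell by 2.80 ± 0.42 on the log2 scale, with an adjusted p of 8.08e-05 across libraries and 0.0215 across mice. Its library call stayed without each mouse, while its result across mice was weaker in 4 of the alternative runs. The main cumulus connexin Gja1 (connexin 43) did not pass, with medians of 7309 and 7228 CPM and a change of −0.08 ± 0.06 (adjusted p = 0.576). Per gene length, in RPKM (the deposited values scaled to gene length and library size), Gja1 stood at 731 ± 68.4 (SD, n = 24 libraries) at 2 months and Gjc1 at 1.86 ± 1.10, so that Gjc1 was the far less abundant of the pair. Gja4 (connexin 37), the connexin made by the oocyte, was at 1.70 and 1.57 CPM and did not pass. The guanylyl cyclase Npr2 did not pass either, with medians of 635 and 532 CPM and a change of −0.18 ± 0.09 (adjusted p = 0.385). Impdh1, an enzyme of guanine nucleotide synthesis, was lower across libraries by 0.39 ± 0.09 (adjusted p = 0.0157) but not across mice (adjusted p = 0.171). Kitl, the ligand of the oocyte receptor KIT, had medians of 61.9 and 76.5 CPM and did not pass (adjusted p = 0.327). Pde10a, a phosphodiesterase of both cyclic nucleotides, was higher across libraries by 2.40 ± 0.56 (adjusted p = 0.0136), and by 1.25 with an adjusted p of 0.2 without library 4.

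Of 18 steroid synthesis genes, 2 were higher and 0 lower across libraries, where 0.875% of all genes tested were higher and 0.943% lower, none in both tests, and the median change was 0.35. Scarb1, the receptor that takes up cholesterol from high-density lipoprotein, had medians of 319 and 410 CPM and was higher by 0.41 ± 0.07 (adjusted p = 0.000702 across libraries and 0.106 across mice). Cyp17a1, the theca enzyme of androgen synthesis, was higher across libraries by 2.50 ± 0.57 (adjusted p = 0.012), but by 1.14 with an adjusted p of 0.29 without library 4. Star, Cyp11a1 and Cyp19a1, for cholesterol import into mitochondria, its first cleavage and estrogen synthesis, did not pass, with changes of 0.40 ± 0.23, 1.51 ± 0.51 and 0.35 ± 0.27. Of 27 genes of cholesterol synthesis and uptake, 2 were higher and 0 lower across libraries (0.875% and 0.943% of all genes), with a median change of 0.22. Among them was Lss, the lanosterol synthase, which had medians of 91.8 and 118 CPM and was higher by 0.55 ± 0.14 (adjusted p = 0.0308 across libraries and 0.155 across mice).

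Among 13 receptors of gonadotropins and steroids, 2 were higher and 1 was lower across libraries, against 0.875% and 0.943% of all genes, and none passed in both tests. Fshr, the receptor of follicle-stimulating hormone, had medians of 139 and 101 CPM and was lower across libraries by 0.45 ± 0.12 (adjusted p = 0.0388). It missed the threshold across mice (adjusted p = 0.0984) although the mouse means of the ages did not overlap, as held for 0.706% of all genes upward and 0.951% downward. Its call was lost without any of 9 of the 10 mice. Of 32 tested genes of AMH, inhibin, follistatin and BMP signalling, 1 was higher and 1 was lower across libraries, against 0.875% and 0.943% of all genes. Tgfbr3 (betaglycan), the co-receptor through which inhibin and TGF-beta2 act, ranged from 42.2 to 234 CPM at 2 months with a median of 80.4 and from 22 to 89.7 CPM at 14 months with a median of 42.3. Tgfbr3 fell by 0.95 ± 0.19 on the log2 scale, with an adjusted p of 0.00234 across libraries and 0.0166 across mice, and 8 of 16 libraries of 14-month mice lay below every 2-month library. Without the 2-month libraries 13 and 19 its change was −0.75 (adjusted p = 0.00416). Inha, the alpha subunit of inhibin, was higher across libraries by 0.37 ± 0.10 (adjusted p = 0.0279), but by 0.27 with an adjusted p of 0.0868 without library 4. Amh varied widely, from 6.68 to 825 CPM at 2 months and from 6.58 to 611 CPM at 14 months, and did not pass (0.97 ± 0.52, adjusted p = 0.411). In the list of insulin and IGF signalling, with 28 genes tested, 3 were higher and 2 lower across libraries, beside the same shares of all genes, and none passed in both tests. Igf1, a growth factor made by granulosa cells, had medians of 280 and 396 CPM and was higher by 0.44 ± 0.09 (adjusted p = 0.00238 across libraries and 0.0688 across mice). Foxo1, a transcription factor restrained by insulin signalling, was lower by 0.32 ± 0.09 (adjusted p = 0.0417 across libraries and 0.391 across mice).

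Of 40 immediate early genes, 1 was higher and 3 were lower across libraries, against 0.875% and 0.943% of all genes, and the 2 that fell in both tests were Ccn1 and Ccn2, with a list median of −0.06. Egr2, a zinc-finger factor, was lower across libraries by 1.03 ± 0.23 (adjusted p = 0.00917 across libraries and 0.107 across mice), and the nuclear receptor Nr4a2 was higher by 1.28 ± 0.28 (adjusted p = 0.00677 and 0.0798). Fos and Jun did not pass, with changes of −0.09 ± 0.19 and −0.14 ± 0.15. Of 23 tested genes of cumulus expansion and its EGF-like ligands, 1 was higher and 2 were lower across libraries, beside the same shares of all genes. Itih5, of the family whose heavy chains crosslink hyaluronan, fell by 2.03 ± 0.52 on the log2 scale (adjusted p = 0.0271 across libraries and 0.043 across mice). Its call was lost without the 2-month libraries 13 and 19 (−1.38, adjusted p = 0.105). Adamts5, a protease of versican, was lower across libraries by 1.11 ± 0.26 (adjusted p = 0.0154) and missed the threshold across mice (adjusted p = 0.0516). Ereg, the ligand epiregulin, was called higher at very low level, from a maximum of 0.925 CPM to one of 13.2 CPM, and lost the call without library 4 (adjusted p = 0.07). Has2 and Ptgs2, the hyaluronan and prostaglandin synthases of expansion, did not pass, with adjusted p of 0.95 and 0.161.

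Of 35 tested extracellular matrix genes, 4 were higher and 2 lower across libraries, against 0.875% and 0.943% of all genes. Lamb1 fell and Mmp2, a gelatinase, rose in both tests. Mmp2 was found in 6 of 24 libraries at 2 months, up to 2.43 CPM, and in 12 of 16 at 14 months, up to 19.3 CPM, with a change of 2.80 ± 0.55 (adjusted p = 0.00234 across libraries and 0.0442 across mice). Its level in oocytes of the 2-month mice was 59.7 CPM. Lama1, another laminin chain, was higher across libraries by 0.30 ± 0.08 (adjusted p = 0.0458) and Nid2, which links laminin to collagen, was lower by 1.19 ± 0.33 (adjusted p = 0.0444), neither across mice. Col3a1 and Col18a1, both collagens, were called at medians of 0 CPM at 2 months, and without library 4 their changes were 2.43 (adjusted p = 0.057) and 1.74 (adjusted p = 0.0913), of which only that of Col18a1 was smaller. Of 25 glycolysis genes, Pdk4, the kinase that closes the pyruvate dehydrogenase step, fell by 1.18 ± 0.23 on the log2 scale (adjusted p = 0.00288 across libraries and 0.0464 across mice), from a median of 64.2 CPM to 34.3, and no other passed. Of 34 tested antioxidant genes, Gpx3 and Prdx2, which reduce peroxides, were lower across libraries by 1.25 ± 0.32 and 0.29 ± 0.07, and neither passed across mice.

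In the lists of division and damage the calls lay near the share of all genes, 1.82% in either direction. Of 48 tested cell cycle genes, Ccnd2 was higher (0.35 ± 0.08, adjusted p = 0.0169) and Ccnd3 lower (−0.56 ± 0.16, adjusted p = 0.0438) across libraries, both D-type cyclins, and neither across mice. None of 36 DNA replication genes, 55 DNA repair genes, 25 genes of the BCL2 family and caspases, or 93 nuclear genes of the respiratory chain passed in either direction (edgeR, with 0, 2, 3 and 8 at an unadjusted p below 0.05). Of 19 tested p53 target and senescence genes, Sesn2 alone passed, lower by 0.86 ± 0.20 (adjusted p = 0.0135), and the cell cycle inhibitor Cdkn1a did not (−0.82 ± 0.28, adjusted p = 0.114). Of 44 tested genes of interferon, antigen presentation and NF-kB signalling, Socs2 alone passed, higher by 0.23 ± 0.06 (adjusted p = 0.0361). One gene each passed among 33 heat shock and ER stress genes (Pdia4, higher by 0.49 ± 0.13), 20 circadian clock genes (Csnk1d, lower by 0.23 ± 0.06), 59 core histone genes (Hist1h2bc, higher by 0.52 ± 0.14) and 37 mitochondrially encoded genes (mt-Nd1, higher by 0.38 ± 0.09), all across libraries only. Of 18 luteal and mural granulosa genes, Abcb1b and Lhcgr were higher and Htra3 lower across libraries.

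Of 7 tested immune cell markers, 1 was higher and 0 lower across libraries, against 0.875% and 0.943% of all genes. This was Lyz2, the lysozyme gene of macrophages (adjusted p = 0.00368 across libraries and 0.281 across mice). Lyz2 had a count in 1 of 24 libraries at 2 months and in 5 of 16 at 14 months. It passed the filter on low counts only through the 14-month libraries, so its call is a description and no support for a difference. Summed endothelial markers were 4.35 to 32.2 CPM at 2 months and 0 to 24.4 CPM at 14 months, summed stroma and smooth muscle markers 14.8 to 54.9 and 11.1 to 92.5 CPM, and summed red blood cell markers 4.35 to 94.7 and 26.4 to 89.8 CPM. Their part in the calls was not tested.

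Of 80 cytoplasmic ribosomal protein genes, 6 were lower and 0 higher across libraries, against 0.943% and 0.875% of all genes. An unadjusted p below 0.05 was found for 49 of the 80, and for 3295 of all 23660 genes tested. The list median was −0.20 against 0.00 for all genes and −0.01 for genes of at least 8 CPM. Rps3a1, Rps27 and Rps18 of the small subunit were lower by 0.34 ± 0.08, 0.29 ± 0.07 and 0.30 ± 0.08 (adjusted p of 0.0135, 0.0189 and 0.0247). None of the 80 passed across mice. The ribosomal share of counts given above is the sum of these same counts.

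**Figure D4:**
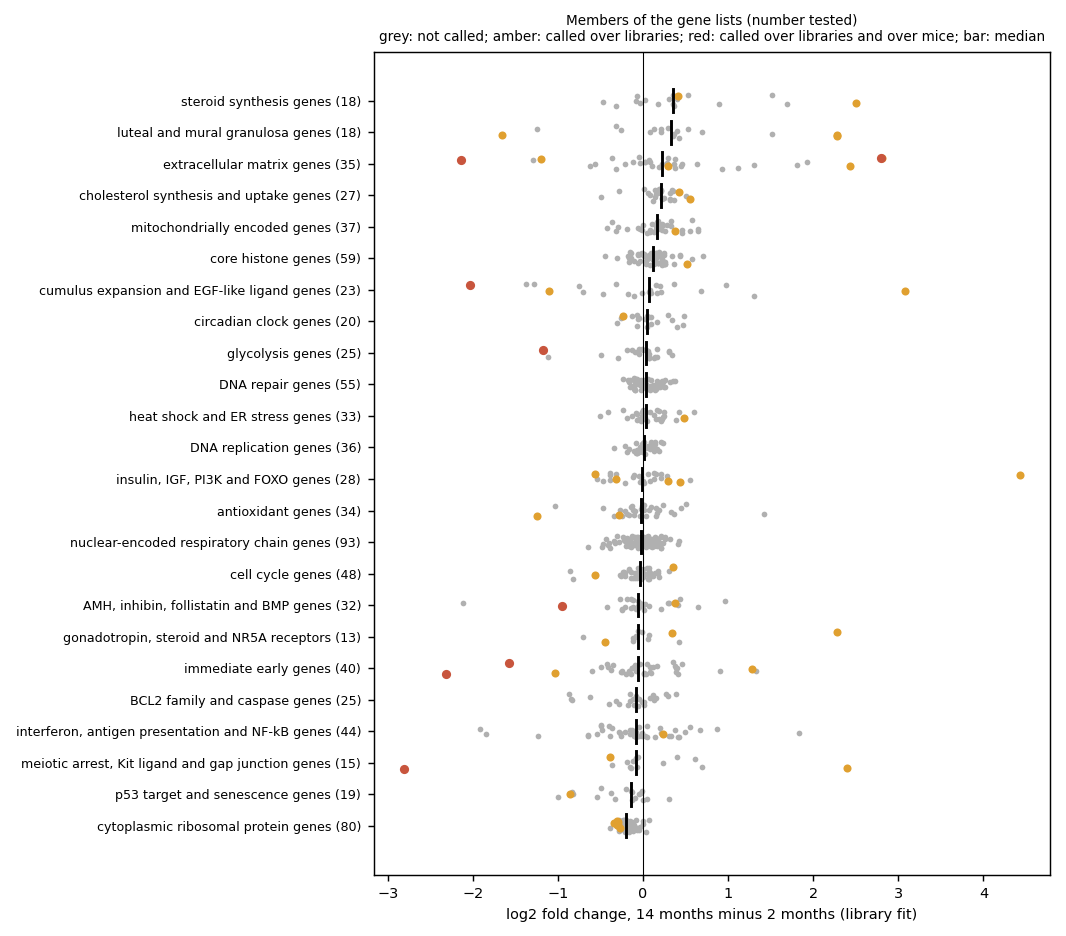
Fitted log2 change from 2 to 14 months of each tested member of the gene lists, 1 row for each list, with a bar at the list median. Grey points did not pass, amber points passed across libraries and red points passed across libraries and mice; most lists centre near 0, with ribosomal protein genes at −0.20 and steroid synthesis genes at 0.35.

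The first set of the study held 15 cumulus libraries of 2 young mice and 16 of 2 old mouse labels, at the same 2 ages. There 923 of 23820 genes differed, 3.87% of those tested, with 362 higher (1.52%) and 561 lower (2.36%) at 14 months. The count was 35 without the mouse Young2, 244 without Old1_2 and 431 without Old3. Libraries were the units of this test and of the test of age by set below. No fit by mouse was run for either, and libraries of 1 mouse are not independent. The sets share no libraries. Of the 430 genes called in the second set, 414 were tested in the first and 296 of these, 71.5%, had the same sign, against 56.6% of the 22519 genes tested in both. In both sets 73 genes were called in the same direction. This was 17.6% of the 414 second-set calls tested in the first set and 8.14% of the 897 first-set calls tested in the second. Of all genes tested in both, 3.98% were called in the first set. Of these 73, 37 were higher, among them 21 of the locus around Luzp4 and Ott, and 36 were lower. Those 21 share reads and are not independent, and the shares above include them. Summed over that locus, young libraries of the first set held 0.820 ± 1.15 CPM (SD, n = 15) and old ones 71.6 ± 34.4 CPM (n = 16).

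Among genes named above, those that also passed in the first set included Cecr2 (−2.39, adjusted p = 0.00146), Ccn1 (−2.31, adjusted p = 0.00218), Gjc1 (−1.57, adjusted p = 0.011), Pdk4 (−1.82, adjusted p = 2.45e-05) and, upward, AC149090.1 (1.31, adjusted p = 1.21e-08), BB365896 (1.11, adjusted p = 0.0104), Gm45061 (1.02, adjusted p = 0.00433) and Aff2 (0.31, adjusted p = 0.0183). Slc38a3 did not pass in the first set, where its change was −0.16 (adjusted p = 0.95), nor did Lamb1 (−0.98, adjusted p = 0.159), Ccn2 (−2.26, adjusted p = 0.08) or Tgfbr3 (−0.23, adjusted p = 0.738). For these 4 the difference between the sets did not pass its own test (edgeR interaction of age and set). Lag3 had a change of 0.43 in the first set, and here the difference between the sets passed (adjusted p = 0.044), as it did for 205 of 26415 genes, 0.776% of those tested.

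The study names hub genes of its first-set networks, a choice made on first-set libraries, and the second set gives values for them that this choice did not use. Of 5 hub genes described as higher in old cumulus cells, 4 were higher across libraries and 3 in both tests, against 0.875% and 0.0888% of all genes. Those in both tests were Luzp4, Gm15127 and Gm15093, with Gm15109 across libraries only (adjusted p = 0.000923, and 0.0607 across mice). All 4 belong to the locus on the X chromosome and share reads. Most genes of that locus could pass the filter on low counts only through the libraries where they are high. These numbers of hub genes are therefore descriptions and no support for the difference. The fifth, Tia1, an RNA-binding protein of stress granules, had medians of 81.2 and 98.0 CPM and did not pass (0.37 ± 0.15, adjusted p = 0.207). Of 5 hub genes described as lower, Fos, Fosb, Jun, Sik1 and Zfp36, none passed in the second set, and their median change was 0.09.

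**Figure D5:**
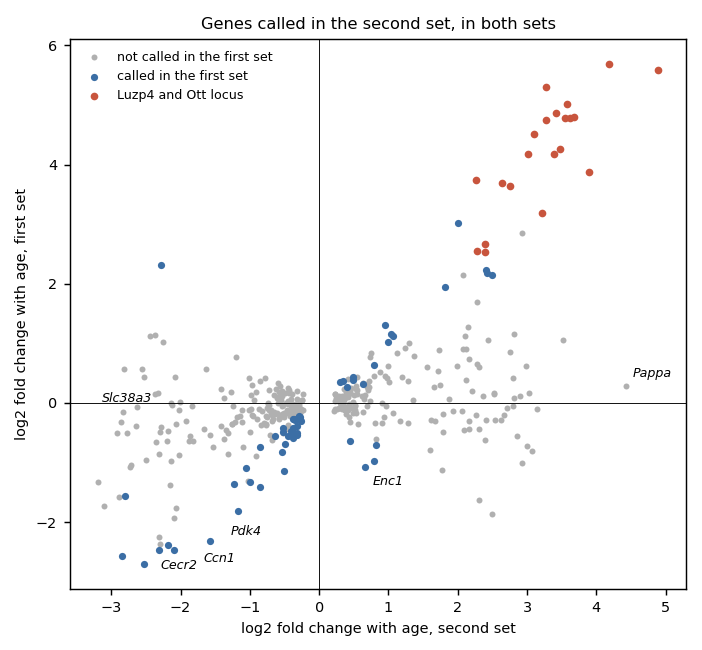
Change with age in the first set against that in the second set (log2, 14 minus 2 months) for the 414 genes called in the second set and tested in the first. Blue points were called in the first set too and red points belong to the locus around Luzp4 and Ott; 296 points have the same sign on both axes.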

How the data were processed

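RNA of cumulus cells was sequenced by RamDA-seq. After trimming, the authors aligned the reads to GRCm38 and counted them on GENCODE genes, with HISAT2 2.0.5 and featureCounts 1.5.1 per the submitters' processing notes, and deposited estimated counts that are not whole where reads map to several places. They also deposited RPKM values, scaled to gene length and library size, used here only to compare the levels of 2 genes.

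Counts were rounded and genes detected in 5 or more of the 40 libraries were tested in edgeR 4.0.16 (R 4.3.3) by the quasi-likelihood F test with TMM scaling and the plate as covariate, with Benjamini-Hochberg adjusted p below 0.05. Libraries were the units, as in the study, and libraries of 1 mouse are not independent, so the counts were also summed by mouse and tested with 5 mice at each age. CPM values are TMM-scaled, except sums over loci. Other tests were exact permutation tests over the 252 divisions of the mice. limma 3.58.1 and DESeq2 1.42.0 gave alternatives.

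The 10 largest increases and decreases were named among genes of at least 8 CPM that passed both tests, filled by the library test with an unadjusted p below 0.05 over mice, beside list members that passed, defining members, hub genes and the leading genes of each interaction. The members, lists and rules were chosen with earlier results of these data known. Some list members are not reported here.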

Additional observations from a re-analysis of the deposited data

Results flagged for a closer look

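For 15 genes named by the rules or chosen after their values were seen, the change with age differed between the sets in the test of age by set (edgeR, adjusted p below 0.05). Values are the first-set change minus the second-set change on the log2 scale. The sets come from different mice, and what lies behind these differences was not tested.

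Of the genes called in both sets, 5 were called in opposite directions and are listed for that reason, with differences of 4.41 for Bmx, a cytoplasmic tyrosine kinase, −1.68 for Enc1, an actin-binding protein, −1.76 for Nupr1, a stress-induced chromatin protein, −1.07 for Rap2b, a small GTPase, and −1.53 for Gm37653. Bmx was at 0 CPM in the median library of both ages in the second set, and its call in the second set was lost without any of 7 mice.

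Other genes had passed in 1 set. Among early response genes the difference was −1.72 for Klf6, −1.61 for Sik1 and −1.83 for Zfp36, which passed as lower at 14 months in the first set and had changes of 0.01, 0.39 and 0.35 in the second. Lag3 differed by 2.62, Nid2 by 1.91 and Dhrs3, a retinaldehyde reductase, by 1.44, each lower at 14 months in the second set, with first-set changes of 0.43, 0.78 and 0.09. Cyp17a1 differed by −4.35 and mt-Nd1 by −0.62. The difference of Cyp17a1 holds the single library 4 of mouse 14mo37, without which its second-set change was 1.14. Mid1, an X-linked ubiquitin ligase, differed by 4.23 and Gm21742 by 6.99, from second-set changes of −0.13 and −1.45 that did not pass.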

How the results depend on the processing

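No named gene or count that passed its test changed direction under any alternative run. The library count of 430 was 238 with all cumulus libraries of the second set in 1 fit, 269 with limma-voom and the mouse as a random effect, 250 on plate B1 alone and 18 on plate B2 alone, where there are 16 libraries. It ranged from 200 to 398 when each mouse was left out. It stayed between 303 and 443 without the plate term, under other size factors, filters and DESeq2, with the oocyte marker share as a covariate and without mice 2mo1 and 2mo2. Added after the data were seen, it was 381 without the 2 libraries highest in oocyte markers, 328 without 14-month library 4 and 354 without 2-month libraries 13 and 19.

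The mouse count of 61 was 30 without the plate term, 679 with no filter on low counts, 24 with the filterByExpr filter and 184 with DESeq2, and it ranged from 6 (without 14mo41) to 71 (without 2mo1). It was 27 without 14mo37, 27 without 14mo38, 15 without 14mo39, 22 without 14mo40, 17 without 2mo35, 32 without 2mo34 and 32 without 2mo36. Why the filter moves it this far was not tested. The first-set count of 923 ranged from 35 (without Young2) to 674. The age by plate test called 0 genes, and 7 with the filterByExpr filter. Among the named genes, 27 lost their library call without 14-month library 4, among them Amn1 (adjusted p = 0.0511), and 21 without 2-month libraries 13 and 19. The share of variance between ages was 15.7% over genes of at least 8 CPM, where it no longer passed, and it kept its call over divisions within plates.

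No paired analysis was possible because no mouse gave libraries at both ages and the replicate numbers only count libraries within a group. The precision of the mouse test is limited by 5 mice at each age, and the smallest p of the exact tests is 0.00794. Below about 1 CPM a library holds about 1 count, so genes at this level rest on few reads.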

Other observations

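Genes of retinoid metabolism and response gave calls in both directions. The 3 lists described here were made after values of these data were seen, so their counts are descriptions only. Of 14 tested retinoid genes, 1 was higher and 2 were lower across libraries, and 7 had an unadjusted p below 0.05. Over all 23660 genes tested, 0.875% were higher, 0.943% were lower and 3295 had an unadjusted p below 0.05. Dhrs3, which turns retinaldehyde back to retinol, fell by 1.38 ± 0.23 on the log2 scale (adjusted p = 0.000266 across libraries and 0.015 across mice), from a median of 33.6 CPM to 14, and the mouse means did not overlap. Rarg, a retinoic acid receptor, was lower across libraries by 1.21 ± 0.33 (adjusted p = 0.0414), and without 2-month libraries 13 and 19 the adjusted p was 0.108. Stra6, the receptor that takes up retinol, was higher across libraries by 0.72 ± 0.18 (adjusted p = 0.0223 across libraries and 0.0519 across mice), with medians of 90.2 and 147 CPM.

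Against 0.875% of all genes higher and 0.943% lower, 0 of 23 tested genes of the Hippo pathway and its YAP targets were higher and 4 lower across libraries, with a median change of −0.09. Beside Ccn1 and Ccn2 these were Myof, a membrane repair protein, lower by 1.31 ± 0.31 (adjusted p = 0.0165 across libraries and 0.116 across mice), and Amotl2, an angiomotin that binds YAP, lower by 0.51 ± 0.15 (adjusted p = 0.0499 and 0.104). Myof and Amotl2 lost their calls without 2-month libraries 13 and 19, with adjusted p of 0.054 and 0.14. Against the same 0.943% of all genes, 2 of 10 tested TGF-beta ligands and receptors were lower across libraries. These were Tgfbr3, which fell in both tests, and the ligand Tgfb3, which had medians of 54.8 and 21 CPM and was lower by 1.10 ± 0.24 (adjusted p = 0.00824 across libraries and 0.0968 across mice).

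Genes of other multicopy loci were also called higher at 14 months. Of 17 genes related to Speer on chromosome 5 (chr5:25919632-26357230), 13 were higher across libraries and 1 in both tests. Their summed level ranged from 0 to 92.9 CPM at 2 months and from 0 to 716 CPM at 14 months, with 4 of 16 libraries of 14-month mice above all 2-month libraries. The value of 716 CPM came from library 4 of mouse 14mo37, and the next highest was 249 CPM. The calls without that library are not given here. At 9 months the summed level was 375 ± 1167 CPM (SD, n = 16 libraries), with 4654 CPM in 1 library. In the first set it was 25.2 ± 35.1 CPM (n = 15) in young and 21.7 ± 42.9 CPM (n = 16) in old mice. Of the counts above 0, 85.4% were not whole, so reads are shared among these copies. At the copies of 2810047C21Rik1 on chromosome 7 (chr7:7362898-9876966) the annotation places 68 genes. Only 4 of these were tested, and these 4 were higher across libraries, none of them in both tests. The summed level of the locus was 0 to 9.18 CPM at 2 months and 1.01 to 23.7 CPM at 14 months, where 9 of 16 libraries lay above all 2-month libraries. At both of these loci, genes with few counts at 2 months could pass the filter on low counts only through libraries where they are high. The numbers called among those tested are therefore descriptions and no support for a difference.

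Genes that fell in both tests in the second set and passed in the same direction in the first included, picked after their values were seen, Bcl6, a transcriptional repressor (−0.99 ± 0.21 in the second set, adjusted p = 0.00467), Tob2, an antiproliferative protein (−0.85 ± 0.17, adjusted p = 0.00263), Dock8, an activator of the GTPase CDC42 (−1.23 ± 0.23, adjusted p = 0.00169), and Hsd17b11, a steroid and lipid droplet dehydrogenase (−1.06 ± 0.18, adjusted p = 0.000623).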
